A study of Mus musculus with 5 samples.

Results

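The interleukins and their receptors were described as the protein-coding mouse genes whose symbol starts with Il followed directly by a number. The rule was applied to the gene-level count table of the iridocorneal angle and found 84 genes of 56941 identifiers. Of these, 60 were tested, among 19713 tested genes in all. The mice were 12 months old and are described as male and female. The tissue was a strip cut around the edge of the cornea, where fluid leaves the eye, and some iris and ciliary body stayed on it. DBA/2J mice develop pigment dispersion and raised eye pressure with age, and carry a mutant Gpnmb allele together with the b allele of Tyrp1. The control strain DBA/2J-Gpnmb+/SjJ (Gpnmb+) has a functional Gpnmb allele and keeps the Tyrp1 b allele, which both groups therefore share. There were 3 DBA/2J pools and 2 Gpnmb+ pools, and no pool was treated. The sample descriptions state that 3 mice were pooled for each, whereas the library names list 2 animals for both Gpnmb+ pools and 3 for the others.

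Interleukins are secreted signals by which epithelial, stromal and immune cells recruit and instruct each other. Most act through a receptor complex in which a ligand-specific chain pairs with a chain shared by a whole family, such as the IL-1 receptor accessory protein, the common gamma chain, the common beta chain or gp130 (Il6st). IL-33 is held in the nucleus of barrier and stromal cells and is released on damage to act on cells that bear its receptor ST2 (Il1rl1). The anterior chamber is an immune-privileged space in which resident macrophages and dendritic cells lie close to the outflow tissue.

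Library totals lay between 43900661 and 49837758 counts. All levels below are CPM, which are counts divided by a scaled library total and multiplied by 1000000. The scaled total is the sum over the tested genes times a factor from the trimmed mean of M-values (TMM). On that scale 3 counts corresponded to 0.0591 to 0.0699 CPM. All fold changes are DBA/2J over Gpnmb+ on the log2 scale. Gpnmb itself, the gene that defines the groups, was at 45.9, 52.0 and 43.6 CPM in the DBA/2J pools and at 2555 and 2260 CPM in the Gpnmb+ pools. The groups also differed in sex-linked RNA. Xist, the transcript of the inactive X chromosome, was at 13.4, 0 and 54.2 CPM in the DBA/2J pools and at 155 and 187 CPM in the Gpnmb+ pools. Ddx3y, a Y-linked gene, was at 81.2, 97.1 and 35.1 CPM against 0 and 0.0818 CPM. The Gpnmb+ pools thus showed almost no Y-linked RNA, which goes against their description as holding tissue of both sexes. Sex and genotype cannot be told apart in any comparison of the groups. Markers of macrophages, mast cells, lymphocytes, corneal epithelium, pigmented cells and stroma were all detected. RNA of skeletal muscle and photoreceptors, tissues outside the angle, was present too, at summed levels of 73.7 to 329 CPM and 306 to 1669 CPM. Each pool is a bulk sample, in which fewer cells of a type and less RNA per cell cannot be told apart.

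The sequences upstream of Il33, Il6 and Il1b are shown because Il33 was the interleukin gene that passed the test and Il6 and Il1b varied widely between pools of the same group. Each is the 250 bases before a RefSeq transcript start, taken from a table of build GRCm38.p6 and placed on GRCm39 by an exact match to 1 position, and is written 5′ to 3′ on the gene's strand with the last letter just before the start. Capitals mark matches to TATAAA, to GGGNN followed directly by TTTCC (kappaB-type), to TGANTCA (AP-1) or to TTNNGCAA (C/EBP-type), searched on both strands. The Il33 windows belong to separate starts. The upstream one is at chr19:29902263-29902512 (+ strand) and the downstream one at chr19:29922940-29923189 (+ strand). The Il6 window is at chr5:30217862-30218111 (+ strand) and the Il1b window at chr2:129213060-129213309 (- strand).
Il33, upstream start: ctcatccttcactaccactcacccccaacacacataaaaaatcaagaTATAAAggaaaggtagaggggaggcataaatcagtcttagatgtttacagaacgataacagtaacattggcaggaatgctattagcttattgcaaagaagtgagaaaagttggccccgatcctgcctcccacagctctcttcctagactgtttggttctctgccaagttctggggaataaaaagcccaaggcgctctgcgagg
Il33, downstream start: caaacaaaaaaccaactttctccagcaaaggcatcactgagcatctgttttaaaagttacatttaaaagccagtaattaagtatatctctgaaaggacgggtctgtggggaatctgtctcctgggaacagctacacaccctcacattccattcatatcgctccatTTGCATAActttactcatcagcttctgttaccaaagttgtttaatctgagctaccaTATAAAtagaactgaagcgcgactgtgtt
Il6: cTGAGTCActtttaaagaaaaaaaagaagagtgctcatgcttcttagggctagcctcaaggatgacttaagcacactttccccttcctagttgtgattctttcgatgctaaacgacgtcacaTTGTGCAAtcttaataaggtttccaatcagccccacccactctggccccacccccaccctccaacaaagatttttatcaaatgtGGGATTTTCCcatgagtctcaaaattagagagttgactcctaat
Il1b: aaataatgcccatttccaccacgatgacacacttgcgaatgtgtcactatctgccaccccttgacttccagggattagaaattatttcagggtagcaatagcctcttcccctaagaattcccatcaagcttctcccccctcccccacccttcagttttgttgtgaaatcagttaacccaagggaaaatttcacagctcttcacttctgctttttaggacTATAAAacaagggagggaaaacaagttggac

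The downstream Il33 window held TATAAA at positions -29 to -24 and a C/EBP-type match on the opposite strand at -85 to -78. The upstream Il33 window held TATAAA only at -203 to -198. Il6 held a kappaB-type match at -44 to -35, a C/EBP-type match at -128 to -121 and an AP-1 match at -249 to -243, while Il1b held TATAAA at -31 to -26. No matches overlapped in these windows. Over 32851 windows of the same length, 1.41% held the kappaB-type motif, 6.75% the AP-1 motif, 12.4% TATAAA and 9.56% the C/EBP-type motif. A window was found for 62 of the 84 genes, 76 windows in all, of which 6 held the kappaB-type motif and 13 each of the other motifs. A match is a description of the letters and not a shown binding site.

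Most receptors were detected, whereas many ligands were at or near 0. Of the 84 genes, 12 had a highest pool of 4 to 9 counts, 6 had at most 3 counts in every pool, and 6 had no count. The genes with no count were Il9, Il13, Il22b, Il31, Il11ra2 and Il11ra3. Il13, a type 2 cytokine of mucus and fibrotic responses, and Il31, an itch cytokine, were therefore below the floor of 3 counts in all 5 pools. Il5, the growth factor of eosinophils, reached 3 counts and Il3, Il21 and Il22 reached 1 count in their highest pool. Il4, which drives type 2 responses, had 2, 1 and 0 counts in DBA/2J against 0 and 7 counts in Gpnmb+. Il17a, the prototype ligand of its family, had 7, 0 and 1 counts against 3 and 0 counts. Il2, the T cell growth factor, had 2, 0 and 1 counts against 4 and 7 counts. None of these ligands could be compared at this depth. Their receptors were better represented, and every member of the small set of other interleukins (Il16, Il34 and Il4i1) was tested.

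**Figure D1:**
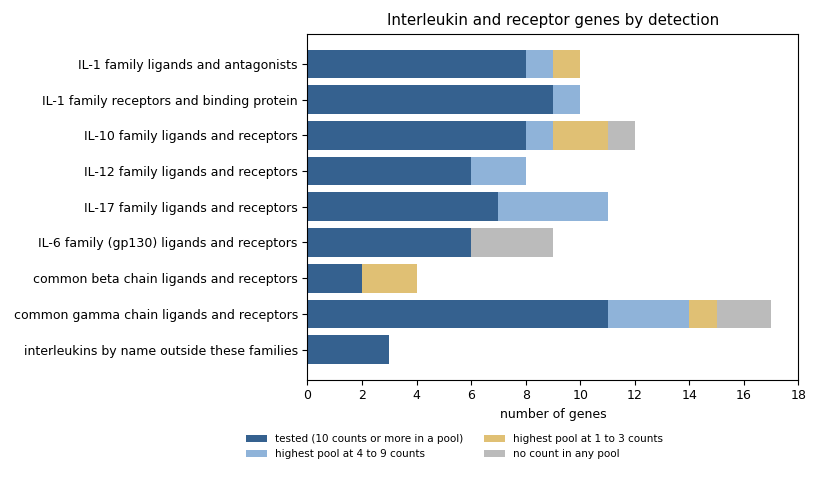
Number of interleukin and receptor genes in each family group (horizontal axis, genes), split by the counts of their highest pool. In the common gamma chain group 11 of 17 genes were tested, and in the IL-1 receptor group 9 of 10.

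Per kilobase of annotated exon, the most abundant genes were an alarmin and a shared receptor chain. Il33 averaged 44.9 CPM per kb (25.0 to 58.0 over the 5 pools) and Il6st, the signalling chain gp130, 41.7 CPM per kb (33.3 to 47.8). These ranges overlapped over the 5 pools. Per kilobase, Il33 was above Il6st in every DBA/2J pool and below it in both Gpnmb+ pools, so their order differed between the groups. Il13ra1, a chain shared by the IL-4 and IL-13 receptors, followed at 21.7 CPM per kb (17.8 to 30.5), and Il1rn, the secreted IL-1 receptor antagonist, at 18.8 CPM per kb (10.3 to 28.2). Il1r1 (12.1 CPM per kb), Il11ra1 (11.6 CPM per kb) and Il7r (10.3 CPM per kb) came next, also with overlapping ranges. They were followed by Il2rg (8.42 CPM per kb), Il18 (8.21 CPM per kb) and Il1b (7.38 CPM per kb). Il18 was the steadiest of these 10, at 7.71 to 8.54 CPM per kb, and Il1b the most variable, at 1.07 to 19.3 CPM per kb. Il11ra1 has near-identical copies, Il11ra2 and Il11ra3, that had no count, and reads that fit several copies were not kept, so its level is uncertain.

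**Figure D2:**
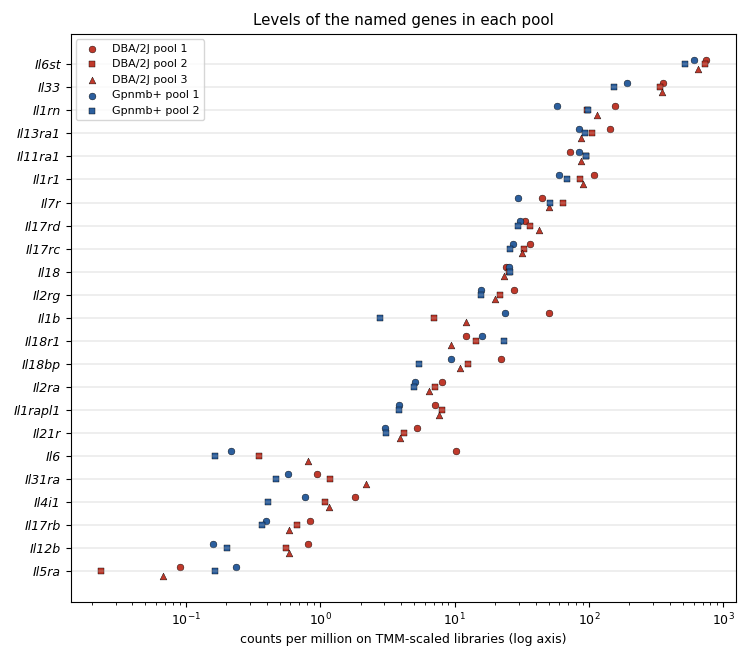
CPM in each pool (horizontal log axis) for the 23 genes named by the rule, ordered by mean level. Red symbols are DBA/2J pools and blue symbols Gpnmb+ pools, and the symbol shape gives the pool number. Il33 lay at 335 to 358 CPM in DBA/2J and 154 to 193 CPM in Gpnmb+.

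The comparison of DBA/2J with Gpnmb+ asked which interleukin genes differed in the drainage tissue of the glaucoma strain. Of these genes, Il33 passed the test (edgeR quasi-likelihood, Benjamini-Hochberg adjusted p of at most 0.05 over all tested genes and a fold change of at least 1.5). That is 1 of 60 (1.67%), against 0.796% of all tested genes called in either direction and 0.502% called higher in DBA/2J. Il33 was at 358, 335 and 347 CPM in the DBA/2J pools and at 193 and 154 CPM in the Gpnmb+ pools. All DBA/2J pools were above both Gpnmb+ pools, and the 3 DBA/2J values lay close together. The means were 347 ± 11.5 CPM (SD, n = 3) and 174 ± 27.7 CPM (SD, n = 2). The log2 fold change was 1.00 ± 0.12 (SE), or 1.99-fold, with an edgeR adjusted p of 0.0375. The call was lost when any of the DBA/2J pools or Gpnmb+ pool 2 was left out. Without DBA/2J pool 1, 2 or 3 the edgeR adjusted p was 0.114 to 0.125. Those fits called 6, 1 and 17 genes of all, against 157 with all pools, so most calls of other genes were lost too. The log2 fold change stayed between 0.84 and 1.17 over all pools left out in turn. Il33 is on the list of cytokine genes that the study drew from these same pools, so its place there is not independent evidence. Il33 (ENSMUSG00000024810, chr19:29902483-29938933, + strand, GRCm39) overlaps an opposite-strand long noncoding gene, Gm41832, that is not a row of the count table, and the strandedness of the counting was not stated.

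Short of the adjusted threshold, the difference leaned toward DBA/2J. At an unadjusted p of at most 0.05, 15 of 60 genes (25.0%) were higher in DBA/2J, against 8.31% of all tested genes, and 2 of 60 (3.33%) were lower, against 7.60%. In 20 of 60 genes (33.3%) every DBA/2J pool was above both Gpnmb+ pools, against 17.3% of all tested genes. In 4 of 60 (6.67%), Il15, Il15ra, Il18r1 and Il5ra, every DBA/2J pool was below, against 17.2%. The median log2 fold change of the 60 genes was 0.33 and that of all tested genes -0.02. In all, 66.7% of the 60 genes and 47.4% of all tested genes had a positive fold change. The lean was smaller without DBA/2J pool 1 (median 0.18) and without Gpnmb+ pool 2 (median 0.17). Without DBA/2J pool 1, 10 genes (17.5% of those tested) were higher at an unadjusted p of at most 0.05, against 6.92% of all genes tested. Without Gpnmb+ pool 2, 7 genes (11.9%) were higher, against 5.85%, and 4 (6.78%) were lower, against 5.63%, so the smaller share of lower genes was not kept there.

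**Figure D3:**
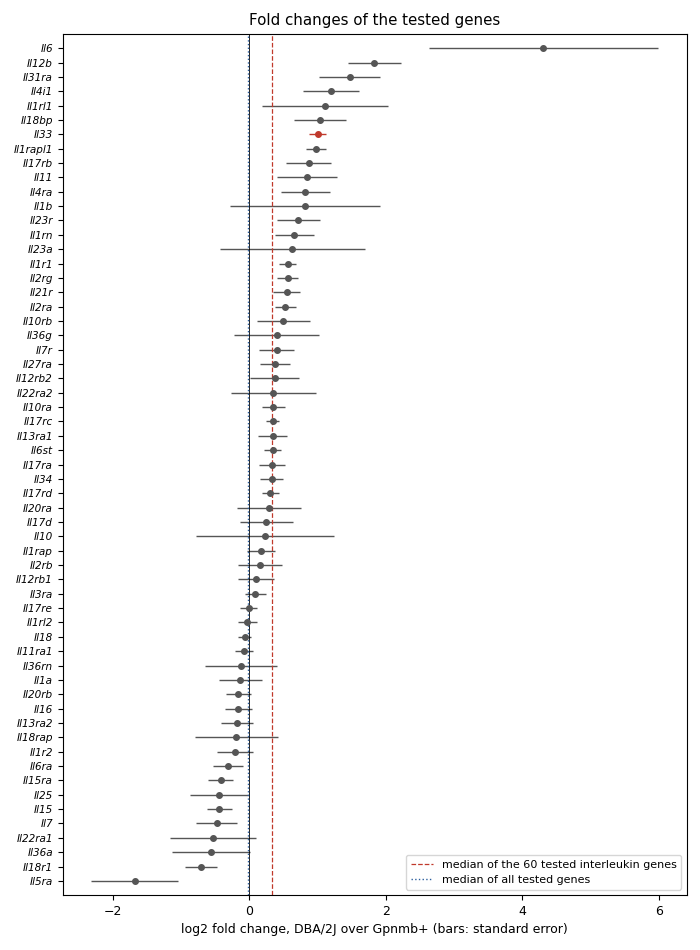
Log2 fold change, DBA/2J over Gpnmb+ (horizontal axis, bars: standard error), of the tested interleukin genes except Il24, which had counts in 1 pool only. Il33, in red, was the gene called, and the dashed and dotted lines are the medians of the interleukin genes (0.33) and of all tested genes (-0.02).

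Among the IL-1 family ligands, 8 of 10 were tested, with 4 higher and 4 lower in DBA/2J and a median of 0.16. Il18, an inflammasome-processed cytokine, had nearly equal levels of 24.3, 25.2 and 23.2 CPM against 25.2 and 25.7 CPM, with a log2 fold change of -0.07 ± 0.09 (SE). Il1a, an alarmin of epithelial cells, was at 7.63, 5.47 and 10.8 CPM against 7.08 and 10.4 CPM, and the groups overlapped fully. Il1rn, the natural antagonist of Il1a and Il1b, was at 156, 96.7 and 114 CPM against 57.3 and 97.7 CPM. Its highest Gpnmb+ pool lay above its lowest DBA/2J pool, and the edgeR adjusted p was 0.343. Il1b, the major macrophage product of the family, was at 50.3, 7.01 and 12.2 CPM against 23.6 and 2.78 CPM. The spread within each group exceeded the difference between them, with a log2 fold change of 0.81 ± 1.10 (SE), which was -0.46 without DBA/2J pool 1 and -0.03 without Gpnmb+ pool 2. Il36a and Il36rn, the epithelial agonist and antagonist of the IL-36 receptor, also overlapped between groups.

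The IL-1 family receptors held several of the smallest p-values. Il1r1, the signalling receptor for Il1a and Il1b, was at 108, 85.7 and 90.3 CPM in DBA/2J and at 60.1 and 68.1 CPM in Gpnmb+. The groups did not overlap, with a log2 fold change of 0.56 ± 0.13 (SE) and an edgeR adjusted p of 0.117. Under DESeq2's Wald test the adjusted p of Il1r1 was 0.00526, but its log2 fold change of 0.57 was below the 1.5-fold minimum. Its decoy Il1r2 was at 14.0, 11.9 and 10.7 CPM against 10.1 and 18.1 CPM, and its partner Il1rap at 32.3, 23.1 and 22.0 CPM against 25.1 and 20.9 CPM, both with overlap. Il1rapl1, an accessory-like protein best known from synapses, was at 7.20, 8.01 and 7.64 CPM against 3.86 and 3.84 CPM. Here the pools of each group were almost equal, and the log2 fold change of 0.98 ± 0.15 (SE) had an edgeR adjusted p of 0.0521, just short of a call. DESeq2's Wald test called it, with an adjusted p of 1.41e-06. Il1rapl1 is X-linked, and the groups differed in sex-linked RNA.

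IL-18 components did not share a direction. Il18r1, the ligand-binding chain of the IL-18 receptor, was at 12.1, 14.4 and 9.44 CPM in DBA/2J and at 16.0 and 23.2 CPM in Gpnmb+. All DBA/2J pools were below both Gpnmb+ pools, with a log2 fold change of -0.71 ± 0.23 (SE) and an edgeR adjusted p of 0.23. Il18bp, the secreted inhibitor of IL-18, was at 22.2, 12.5 and 10.9 CPM against 9.34 and 5.46 CPM. Its groups did not overlap either, with a log2 fold change of 1.04 ± 0.38 (SE) and an edgeR adjusted p of 0.274. Il18bp lies opposite to Numa1, which had 6809 to 7781 counts per pool, and without strand their reads in shared sequence cannot be told apart.

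On chromosome 1, 6 receptor genes of the family lie side by side, and their fold changes were not alike. In order along the chromosome (GRCm39, from 40113239 to 40590865) they are Il1r2, Il1r1, Il1rl2, Il1rl1, Il18r1 and Il18rap. Their log2 fold changes were -0.21, 0.56, -0.03, 1.11, -0.71 and -0.19 in that order. Il1rl2, the IL-36 receptor, was level at 43.2, 47.1 and 35.9 CPM against 40.2 and 45.7 CPM. Il1r1 was higher in every DBA/2J pool, whereas the value of Il1rl1 rested on DBA/2J pool 1 and was -0.35 without it. None of the 6 passed the test.

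**Figure D4:**
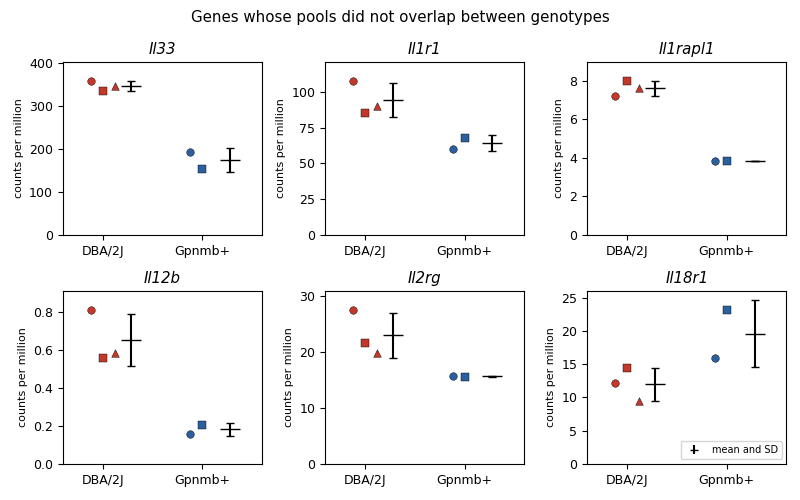
CPM per pool (vertical linear axes from 0) of 6 genes whose DBA/2J pools (red) and Gpnmb+ pools (blue) did not overlap, with mean and SD beside them and symbol shape giving the pool number. Il33 was the one called, while Il18r1 was lower in all DBA/2J pools.

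The IL-12 family was the group in which all tested genes had positive fold changes, 6 of 6, with a median of 0.50 and a range of 0.10 to 1.83. Positive fold changes were found in 66.7% of the 60 interleukin genes and in 47.4% of all tested genes. Il12rb1 (0.10 ± 0.26 SE), Il12rb2 (0.37 ± 0.36 SE) and Il23a (0.63 ± 1.06 SE) overlapped between groups, and the rest did not. Il12b, the p40 chain shared by IL-12 and IL-23, was at 0.810, 0.559 and 0.583 CPM in DBA/2J and at 0.158 and 0.204 CPM in Gpnmb+. In counts these were 36, 24 and 26 against 8 and 10, so the groups did not overlap but the level was low. The log2 fold change was 1.83 ± 0.39 (SE), with an edgeR adjusted p of 0.105, and DESeq2's Wald test called it with an adjusted p of 0.0419. Its partner chains were scarcer still. Il12a reached 4 counts, and Il23a had 9, 7 and 7 counts against 0 and 11 counts. Il12b, like Il33, belongs to the cytokine genes the study drew from these pools. Markers of dendritic cells, a source of p40, had summed levels of 32.1 to 37.1 CPM in DBA/2J and 23.9 to 24.8 CPM in Gpnmb+. Of these 6 markers all were tested, all had positive fold changes and none was called. Ccr7, a receptor of migrating dendritic cells, was at 6.30, 2.14 and 2.20 CPM against 0.591 and 0.777 CPM. The part of these cells in the Il12b difference was not tested.

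In the group of the common gamma chain and the IL-4 and IL-13 receptors, 11 of 17 genes were tested, 7 of them with positive fold changes and a median of 0.34. Il2rg, the common gamma chain itself, was at 27.6, 21.7 and 19.9 CPM against 15.7 and 15.6 CPM. The groups did not overlap, with a log2 fold change of 0.56 ± 0.16 (SE) and an edgeR adjusted p of 0.181. Under DESeq2's Wald test its adjusted p was 0.0408, with a log2 fold change of 0.57, again below the 1.5-fold minimum. Il2rg is X-linked, as are Il13ra1 and Il13ra2. Il2ra, the high-affinity chain of the IL-2 receptor, was at 8.03, 7.15 and 6.46 CPM against 5.03 and 4.95 CPM, and Il21r at 5.29, 4.19 and 3.95 CPM against 3.05 and 3.07 CPM. Both were separated between groups, with log2 fold changes of 0.53 ± 0.16 and 0.55 ± 0.20 (SE) and edgeR adjusted p of 0.197 and 0.27. Il7r, the receptor chain of IL-7, overlapped at 44.7, 63.7 and 50.4 CPM against 29.4 and 50.8 CPM. Il13ra1 overlapped as well, at 144, 105 and 86.4 CPM against 84.1 and 92.6 CPM.

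The IL-15 pair leaned the other way. Il15, a survival factor for natural killer and memory T cells, was at 5.53, 6.22 and 4.84 CPM against 6.70 and 8.26 CPM. Il15ra, which presents it in trans, was at 3.80, 3.59 and 4.30 CPM against 5.72 and 4.70 CPM. Both were lower in every DBA/2J pool, with log2 fold changes of -0.44 ± 0.18 and -0.42 ± 0.18 (SE) and edgeR adjusted p of 0.318 and 0.338. They lie outside the rule for named genes and were chosen after their values were seen. In the common beta chain group, Il5ra, the receptor of the eosinophil factor IL-5, had 4, 1 and 3 counts against 12 and 8 counts. The groups did not overlap, and the log2 fold change of -1.68 ± 0.64 (SE) rests on these few counts (edgeR adjusted p 0.285). Il3ra, the receptor chain for IL-3, overlapped between groups, with a log2 fold change of 0.09 ± 0.15 (SE).

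Among genes of the gp130 family, 6 of 9 were tested and none was called. Il6st was at 742, 727 and 651 CPM in DBA/2J and at 600 and 517 CPM in Gpnmb+, with no overlap. Its log2 fold change of 0.34 ± 0.12 (SE) is smaller than the 1.5-fold minimum, and the edgeR adjusted p was 0.251. Il31ra, which pairs with the oncostatin M receptor to bind IL-31, was at 0.945, 1.19 and 2.20 CPM against 0.572 and 0.470 CPM, while the ligand Il31 had no count. Its log2 fold change was 1.47 ± 0.45 (SE), with an edgeR adjusted p of 0.204. Il6ra, the IL-6 receptor, overlapped at 23.9 to 31.3 CPM against 25.5 and 40.2 CPM. Il11ra1 overlapped at 71.7, 94.5 and 87.3 CPM against 84.5 and 94.3 CPM, and its ligand Il11 was low, at 24 to 62 counts. All DBA/2J pools were above both Gpnmb+ pools for Il11, at 1.39, 0.582 and 0.852 CPM against 0.473 and 0.572 CPM. Its log2 fold change was 0.85 ± 0.44 (SE), with an edgeR adjusted p of 0.411.

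Of the IL-17 group, 7 of 11 genes were tested, and the receptors Il17rb, Il17rc and Il17rd were higher in every DBA/2J pool. Il17rc, which pairs with Il17ra to bind IL-17A and IL-17F, was at 36.3, 32.8 and 31.9 CPM against 27.4 and 26.0 CPM. Il17rd was at 33.3, 36.4 and 42.5 CPM against 30.8 and 29.4 CPM. Their log2 fold changes of 0.34 ± 0.10 and 0.31 ± 0.12 (SE) were below the 1.5-fold minimum. Il17rb, the receptor of IL-25, was low at 0.832, 0.676 and 0.583 CPM against 0.394 and 0.368 CPM. Il17re was level at 21.8 to 27.5 CPM against 23.5 and 25.3 CPM. None of the 3 separated receptors passed the adjusted threshold, with edgeR adjusted p between 0.191 and 0.300.

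The IL-10 group had 8 of 12 genes tested and none at an unadjusted p of 0.05 or less. Il10ra, the IL-10 receptor chain of leukocytes, was at 20.9, 20.5 and 17.7 CPM against 18.1 and 12.9 CPM, and Il10 itself at 1 to 10 counts. Il20rb was level at 6.23 to 8.62 CPM against 8.34 and 8.81 CPM. Il10rb had only 13 to 22 counts per pool. It shares its strand with an annotated readthrough gene, Gm21970, that had no count, so its level is uncertain. Of the other interleukins, Il16 and Il34, a ligand of the CSF1 receptor, overlapped between groups. Il4i1, an amino acid oxidase named for its response to IL-4, was at 1.82, 1.09 and 1.17 CPM against 0.769 and 0.409 CPM. Its log2 fold change was 1.20 ± 0.41 (SE), with an edgeR adjusted p of 0.249. Il4i1 shares sequence on the same strand with Nup62, at 884 to 1232 counts, which makes its counts uncertain.

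Several inflammatory interleukin genes were highest in DBA/2J pool 1. The genes in this paragraph outside the naming rule (Il24, Il1rl1 and Il4ra) were chosen after their values were seen. In 4 of 60 genes (6.67%), Il1b, Il1rl1, Il24 and Il6, DBA/2J pool 1 was at least 2-fold above every other pool, against 0.944% of all tested genes. Il6, the acute-phase cytokine whose upstream kappaB-type match is shown above, was at 10.3, 0.349 and 0.807 CPM against 0.217 and 0.164 CPM. Pool 1 was thus 12.8 times the next highest pool, although all DBA/2J pools were above both Gpnmb+ pools. The log2 fold change of 4.31 ± 1.68 (SE) had an edgeR adjusted p of 0.293, and was 1.59 without DBA/2J pool 1. Il24, an IL-10 family cytokine made by stressed epithelium, had 111 counts in DBA/2J pool 1 and 0 in each of the other pools, where a count of 0 allows up to 3 counts. Il1rl1, the IL-33 receptor ST2, was at 52.0, 5.99 and 10.6 CPM against 13.4 and 7.79 CPM, with pool 1 at 3.89 times the next highest. DBA/2J pools 2 and 3 lay within or below the range of the Gpnmb+ pools for this receptor. Its ligand Il33 lay within 335 to 358 CPM in all 3 DBA/2J pools. Il4ra, the shared IL-4 and IL-13 receptor chain, was also highest there, at 76.2, 35.3 and 40.8 CPM against 33.6 and 24.1 CPM. For Il4ra, every DBA/2J pool was above both Gpnmb+ pools.

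The Gpnmb+ pools differed from each other as well. In 7 of 60 genes (11.7%), Gpnmb+ pool 1 was at least 2-fold above Gpnmb+ pool 2, against 5.95% of all tested genes. They were Il10, Il18rap, Il1b, Il22ra1, Il22ra2, Il36a and Il36g, named after their values were seen apart from Il1b. Il1b showed the largest ratio of them, 8.49, and Il18rap a ratio of 4.00. Il36g, an epithelial IL-36 agonist, was at 20.5, 7.87 and 10.4 CPM against 15.4 and 4.19 CPM. From high to low, both Il1b and Il36g ran DBA/2J pool 1, Gpnmb+ pool 1, DBA/2J pool 3, DBA/2J pool 2 and Gpnmb+ pool 2.

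Of the neutrophil marker list, S100a8 and S100a9 followed that same order of pools. S100a8, a calcium-binding protein abundant in neutrophils and also made by stressed epithelium, was at 56.1, 5.64 and 7.13 CPM against 17.3 and 3.56 CPM. S100a9, its partner, was at 126, 8.99 and 12.4 CPM against 45.3 and 4.15 CPM. The 5 neutrophil markers summed to 15.1 to 183 CPM in DBA/2J and 8.63 to 63.9 CPM in Gpnmb+, of which 3 were tested and none called, and most of each sum was S100a8 and S100a9. Camp, an antimicrobial peptide of neutrophil granules, went another way, at 1.01, 0.419 and 0.874 CPM against 1.14 and 0.900 CPM. Csf3r, the receptor of a neutrophil growth factor, was at 50.4, 18.6 and 17.6 CPM against 40.3 and 11.3 CPM. The defining markers Ly6g and Mpo were at or near 0, with at most 0.157 and 0.118 CPM. Lcn2, an iron-binding protein induced by IL-17 and IL-1, was at 1221, 263 and 137 CPM against 154 and 27.4 CPM. Cxcl1, a neutrophil chemokine, was at 26.4, 3.47 and 6.37 CPM against 2.07 and 3.01 CPM. The gp130 ligands Lif and Osm were high in DBA/2J pool 1 too, at 11.0 and 6.64 CPM, with no other pool above 2.66 and 1.43 CPM. These values move with the interleukin genes of that pool, and their part in those levels was not tested.

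**Figure D5:**
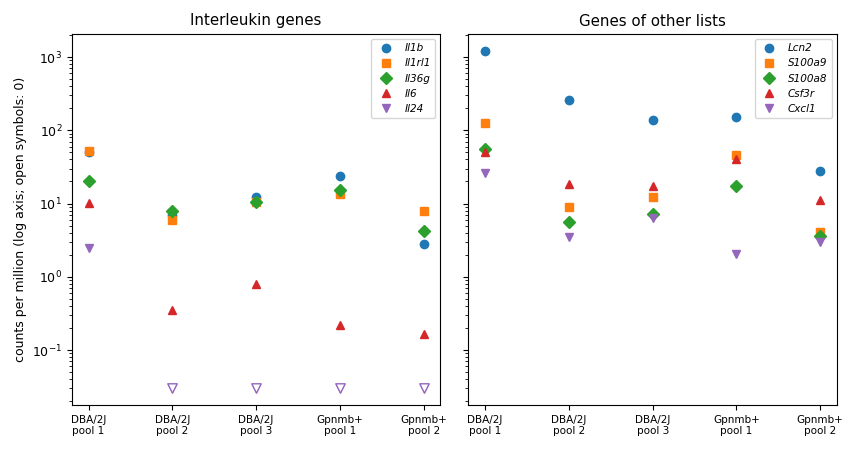
CPM per pool (vertical log axis, open symbols: 0 CPM) of interleukin genes (left) and of genes from other lists (right). DBA/2J pool 1 had the highest value of every gene shown. Il1b, Il1rl1, Il36g, S100a8, S100a9 and Csf3r were next highest in Gpnmb+ pool 1.

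The wider pathway around these genes showed no called member. Of 77 adaptors, kinases, partners and targets listed, 75 were tested and 0 were called by edgeR. At an unadjusted p of at most 0.05, 10 (13.3%) were higher, against 8.31% of all tested genes, and 5 (6.67%) were lower, against 7.60%. DESeq2's Wald test called 3 (Arg1, Socs3 and Stat4), or 4.00%, near the 4.70% of all tested genes that it called. Their median log2 fold change was 0.07, with 43 positive and 31 negative. Stat4, the transcription factor downstream of IL-12, had the smallest p-value. It was at 2.32, 1.98 and 2.00 CPM against 0.966 and 0.879 CPM, with a log2 fold change of 1.18 ± 0.23 (SE) and an edgeR adjusted p of 0.0885. Jak3, the kinase bound by the common gamma chain, was at 17.7, 13.5 and 12.6 CPM against 10.8 and 9.04 CPM. Csf2rb is the beta chain shared by the IL-3, IL-5 and GM-CSF receptors, and Csf2rb2 is a beta chain of the IL-3 receptor. Both were higher in every DBA/2J pool, with log2 fold changes of 0.49 ± 0.15 and 0.57 ± 0.12 (SE). So were Csf1, the growth factor of macrophages (0.32 ± 0.09), Ctf1, a gp130 ligand (0.47 ± 0.17), and Gsdme, a pore-forming gasdermin (0.69 ± 0.24).

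Feedback and target genes went both ways. Socs3, the feedback inhibitor of gp130 signalling, was at 55.8, 24.9 and 40.0 CPM against 23.5 and 15.6 CPM, with no overlap and an edgeR adjusted p of 0.25. Socs2 and Cish, feedback genes of STAT5, were lower in every DBA/2J pool, with log2 fold changes of -0.46 ± 0.13 and -0.73 ± 0.29 (SE). Arg1, an enzyme of macrophages exposed to IL-4 or IL-13, was at 37.1, 29.0 and 19.9 CPM against 62.7 and 55.1 CPM, so every DBA/2J pool was lower (log2 fold change -1.04 ± 0.25 SE, edgeR adjusted p 0.128). The other listed targets of these cytokines (Retnla, Chil3, Mrc1, Ccl11, Ccl24 and Postn) had edgeR adjusted p between 0.423 and 0.979. Of these, Retnla was also lower in every DBA/2J pool, at 8.39, 22.3 and 20.9 CPM against 30.2 and 26.9 CPM, and the rest overlapped between groups. Of 15 genes of IL-1 and IL-33 signalling, 10 had positive and 5 negative fold changes, and none was called. Myd88, the shared adaptor, had a log2 fold change of 0.10 ± 0.14 (SE) and Irak4, a kinase it recruits, 0.06 ± 0.11 (SE). Sigirr, an inhibitory receptor of the family, was lower in every DBA/2J pool, with a log2 fold change of -0.45 ± 0.18 (SE) and an edgeR adjusted p of 0.303. Nfkbiz, an NF-kappaB cofactor induced by IL-1, was at 49.9, 15.4 and 23.1 CPM against 33.3 and 36.9 CPM, again highest in DBA/2J pool 1. The processing enzyme of Il1b and Il18, Casp1, overlapped between groups at 20.1 to 28.5 CPM against 22.0 and 32.7 CPM. Macrophage markers summed to 739 to 998 CPM in DBA/2J and 699 to 811 CPM in Gpnmb+, with none of 9 called, and mast cell markers, whose cells bear ST2, to 247 to 259 CPM and 224 to 286 CPM, with none of 6 called.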

How the data were processed

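RNA of the iridocorneal angle was measured in 3 DBA/2J and 2 Gpnmb+ pools by poly(A)-selected, paired-end RNA-seq. The deposited values are raw counts per Ensembl gene. For these the authors used fastp for trimming, STAR for alignment to GRCm39 and sums of uniquely placed reads over genes. Versions, the counter and strandedness were not given in the sources used here. Symbols, exon lengths and coordinates were taken from GENCODE M39 (56323 of 56941 identifiers matched, and all 84 members). Genes that reached 10 counts in any pool were fitted with edgeR 4.0.16 (glmQLFit, TMM, no covariate). The study used DESeq2 with ashr, which is one of the alternatives (DESeq2 1.42.0, limma 3.58.1, ashr 2.2.63, R 4.3.3). SE is the log2 fold change divided by the square root of F. The script was tested on simulated counts. No library pair was identical (0 pairs).

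Named in full were members called or at an unadjusted p of at most 0.05, the 10 highest per kilobase, and Il33 and Il12b. Pathway genes were named from the 10 of smallest p, and other genes named were chosen after their values were seen. A comparison of patterns with Il33 was dropped because 5 pools are too few for a correlation. The members and lists were chosen with earlier results of these data known. Pools hold several mice each, and p-values measure the spread between pools only. An exact permutation test on the ranks of 3 against 2 pools cannot go below a two-sided p of 0.2. Pool numbers 1 and 2 occur in both groups, but nothing in the labels ties pools of the same number.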

Additional observations from a re-analysis of the deposited data

How the results depend on the processing

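The call of Il33 rests on few pools, as did most calls over all tested genes. Leaving out each pool in turn gave 0 to 1 interleukin genes called (Il33, kept without Gpnmb+ pool 1 only), 0 pathway genes, 1 to 217 genes of all (157 with all pools), a median log2 fold change of 0.17 to 0.43, and 7 to 15 higher and 0 to 4 lower interleukin genes at an unadjusted p of at most 0.05, the last 2 being alternatives chosen after seeing the data. With 1 Gpnmb+ pool left, that pool is assumed to vary like the others. DESeq2's Wald test called 4 of 60 interleukin genes (6.67%), 3 of 75 pathway genes (4.00%) and 927 of 19713 genes in all (4.70%). With ashr these were 4 (Il12b, Il1rapl1, Il24 and Il33), 2 and 734, and the median was 0.03, since ashr shrinks fold changes toward 0. Il24 had counts in DBA/2J pool 1 only. With the unadjusted p and the same fold, 10 of 60 interleukin genes, 6 of 75 pathway genes and 1710 of 19713 genes in all were called. With no count filter, 2 of 78 interleukin genes (Il1rapl1 and Il33) and 360 of 32011 genes in all were called. With the pool number as a replicate block, 3 interleukin genes (Il18bp, Il1b and Il33) and 3 pathway genes were called, with 220 of all genes. Only 2 numbers are shared. The deviations of same-numbered pools correlated at 0.279 and 0.254, and those of pools 1 and 2 across the groups at -0.279 and -0.254. With 2 Gpnmb+ pools their deviations mirror each other, so these values cannot decide whether same-numbered pools belong together. The numbers were not taken as pairs because nothing in the labels ties them, and a shared batch was not tested. The log2 fold change of Il33 stayed at 0.96 to 1.02 under the settings that kept all pools. Il1rl1, added after seeing the data, ran from -0.35 (without DBA/2J pool 1) to 1.56. The fold changes of genes named by the rule that turned were of Il1b (-0.46 without DBA/2J pool 1, -0.03 without Gpnmb+ pool 2, up to 3.06 without Gpnmb+ pool 1) and Il11ra1 (0.03, 0.00 and, without DBA/2J pool 2, -0.17). Their causes were not tested. Of 274 values of the 23 named genes under alternatives, 259 kept direction and stayed called or uncalled. Only Il33 was called with all pools, so staying uncalled was the usual outcome and the count is no measure of stability. Il1r1 and Il2rg are counted as kept under DESeq2's Wald test, with adjusted p of 0.00526 and 0.0408, because their fold changes were below the minimum. Depth limits the ligands at a few counts, for which no difference was detectable.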
